A study of Mus musculus with 18 samples.

Results

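Fos, Fosb, Fosl1, Fosl2, Jun, Junb, Jund, Egr1, Egr2 and Atf3, the AP-1 and immediate early genes measured here, are 10 of the 17267 gene symbols listed in this study of mouse preadipocytes. They were taken by symbol, and all 10 were present in both deposited tables and passed the filter on low counts in both. Poly(A) RNA of wild-type (WT) primary preadipocytes, isolated from epididymal white fat (eWAT) and able to become adipocytes, was sequenced in 18 libraries, 3 in each of 6 groups. In the CD mock group the cells came from mice on a control diet and were mock treated. The CD TGF-b1 group received the cytokine TGF-b1, and the CD TGF-b1 + SB431542 group received it together with SB431542, which blocks the kinase of the type I TGF-b receptor. The HFD mock group was mock treated and came from mice on a high-fat diet. The Itga5-High and Itga5-Low groups were sorted with an antibody to CD49e, the integrin alpha 5 that Itga5 encodes, and were then induced to become adipocytes (DM in the labels). No group received SB431542 without TGF-b1, and the diet of the sorted groups, likewise every dose, treatment time and age, is not given in the sources used here.

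AP-1 is a transcription factor formed by a pair of basic leucine zipper (bZIP) proteins, typically 1 of the Fos family (Fos, Fosb, Fosl1, Fosl2) and 1 of the Jun family (Jun, Junb, Jund). Many of these genes are immediate early genes, which growth factors, cytokines and stress switch on through MAP kinases and serum response factor without new protein synthesis, and whose RNA is short-lived. Egr1 and Egr2 encode zinc finger factors of the same early response, and Atf3 encodes a bZIP factor induced by stress. TGF-b receptors act through Smad proteins, which can bind DNA together with AP-1, and also through MAP kinases.

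Total counts ranged from 11154449 to 17288608 per library. The 18 pairs of replicates were close to what counting error alone gives, with chi-square values of 1.152 to 1.255 per degree of freedom over genes with at least 10 counts. Nothing in the labels says that replicates came from separate animals or cultures, and every p-value here therefore reflects the spread among these libraries alone, possibly a technical one. Pdgfra, which marks fat cell precursors, was at 150.3 CPM (mean per group) in CD TGF-b1 and at 371.9 to 485.8 CPM in the other groups. The adipocyte gene Plin1 lay at 246.3 and 274.2 CPM in Itga5-High and Itga5-Low against 0.141 to 65.8 CPM in the others. Itga5 itself was higher in the sorted High than Low libraries, at 471.6 ± 8.8 against 329.4 ± 4.7 CPM (SD, n = 3). Markers of other cells were present. The summed level of 9 macrophage markers per library was 495.2 to 506.3 CPM in CD mock, 556.8 to 574 with TGF-b1, 984.3 to 1007 with TGF-b1 and SB431542, 2240 to 2263 in HFD mock, and 18.15 to 40.54 in the differentiated groups.

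The DNA just upstream of 5 members is shown because early genes are usually switched on through elements there, and because these genes differed in direction between the groups. Each line gives the 150 bases before an annotated start site, 5′ to 3′ on the strand of the gene, from RefSeq on GRCm38.p6, with matches to the searched motifs in capitals. The Egr2 line belongs to its most abundant transcript model.
Fos, chr12:85473740-85473889, plus strand: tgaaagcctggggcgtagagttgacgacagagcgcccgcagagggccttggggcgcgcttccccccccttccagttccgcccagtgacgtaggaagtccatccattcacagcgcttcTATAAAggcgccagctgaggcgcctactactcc
Fosb, chr7:19310046-19310195, minus strand: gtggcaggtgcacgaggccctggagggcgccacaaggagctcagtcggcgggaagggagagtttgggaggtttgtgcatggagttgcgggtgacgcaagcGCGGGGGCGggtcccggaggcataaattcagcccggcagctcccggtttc
Jun, chr4:95052223-95052372, minus strand: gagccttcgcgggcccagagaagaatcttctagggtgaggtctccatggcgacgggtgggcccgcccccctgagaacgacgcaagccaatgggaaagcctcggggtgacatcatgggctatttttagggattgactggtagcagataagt
Egr2, chr10:67537719-67537868, plus strand: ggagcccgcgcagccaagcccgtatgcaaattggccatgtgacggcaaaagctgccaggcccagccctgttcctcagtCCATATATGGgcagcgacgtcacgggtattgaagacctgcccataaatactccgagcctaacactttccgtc
Atf3, chr1:191183334-191183483, minus strand: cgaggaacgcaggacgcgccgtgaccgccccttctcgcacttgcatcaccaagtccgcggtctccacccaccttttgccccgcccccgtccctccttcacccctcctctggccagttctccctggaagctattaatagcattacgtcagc

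Promoters of 300 bases (250 before and 50 after the start) were found for 8 of the 10 members, 12 promoters in all, and not for Egr1 and Fosl1. They were searched on both strands for the AP-1 site TGANTCA, the cAMP response element TGACGTCA, the EGR site GCGNGGGCG, the Smad palindrome GTCTAGAC, the TATA box TATAAA and the CArG box bound by serum response factor. A CArG box lay in 4 of the 5 Egr2 promoters, some of which overlap, and in 1.63% of the 32851 mouse promoters of the same length. In the Egr2 line above it starts at position -72 from the start site. The EGR site was found in the promoters of Fosb, at -50, and Fosl2, at -79, and in 5.55% of all promoters. The TATA box was found for Fos, at -33, and for Junb, at 1, and in 13.6% of all. None of the 12 held the AP-1 site (7.81% of all), the cAMP response element (1.79%) or the Smad palindrome (0.213%). No searched motif contains another. These are letter matches in short windows and were not measured as binding sites. Only exact matches count, so variants of a motif and elements outside the windows would be missed.

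Levels are in CPM, which divides a gene's count by the size of its library, scaled by TMM within each table, which corrects for a few abundant genes taking up reads. A change is the log2 difference between group means of the fitted model, and a gene was called when the adjusted p of edgeR's quasi-likelihood test, taken over all genes tested, was under 0.05. A large part of all genes was called, and that share is given beside each count of members. Libraries of 2 groups that do not overlap were also common. This held for 69.4% of all genes tested in TGF-b1 against mock, 80.2% when SB431542 was added, and 64% in that group against mock. It held for 58% in HFD mock against CD mock and 58.2% in Itga5-High against Itga5-Low. The share was not computed for HFD mock against the groups given TGF-b1, nor for all pairs of undifferentiated groups at once. Where no pair is said to overlap below, that is a description without such a share beside it. The undifferentiated and differentiated groups were deposited and scaled in separate tables, and levels are set side by side across them without a test. In these bulk samples, fewer cells of a type and less RNA per cell cannot be told apart.

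**Figure D1:**
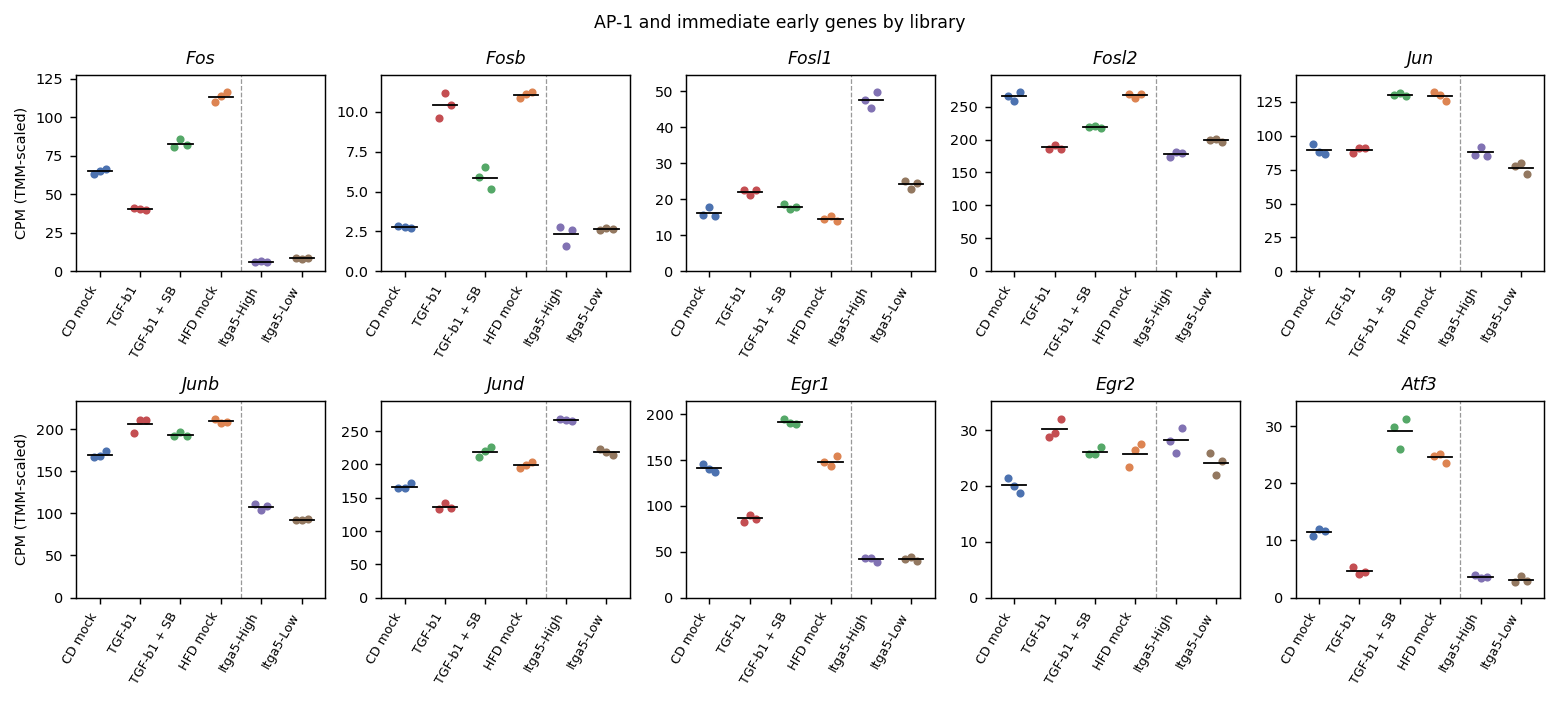
CPM of the 10 members in each of the 18 libraries (points, 3 per group; bars, group means), with a separate linear axis from 0 for each gene. Fos and Atf3 were lowest with TGF-b1 among the undifferentiated groups, and both were lower still in all differentiated libraries, while Fosb was lowest in CD mock among the undifferentiated groups.

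Among the Fos family, Fos, the archetypal immediate early gene (chr12:85473890-85477274, mm10), spanned the undifferentiated groups with no overlap between any pair. Fos was at 63.2, 65.03 and 66.3 CPM in the 3 CD mock libraries, 41.2, 40.2 and 39.4 with TGF-b1, 80.5, 85.99 and 82.1 with TGF-b1 and SB431542, and 109, 114 and 116 in HFD mock. In the differentiated cells it was at 6.19, 6.49 and 6.29 CPM in Itga5-High and 8.73, 8.21 and 8.802 in Itga5-Low. The order was thus TGF-b1, CD mock, TGF-b1 with SB431542 and HFD mock from low to high, and both differentiated groups lay below all of them.

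Fosb (chr7:19302696-19310045), which encodes a Fos protein with a well-known truncated splice form, was, per kb of transcript, the least abundant Fos family gene in all 6 groups. It was at 2.81, 2.76 and 2.74 CPM in CD mock, 9.64, 11.2 and 10.4 with TGF-b1, 5.91, 6.55 and 5.15 with TGF-b1 and SB431542, and 10.9, 11.1 and 11.2 in HFD mock. The TGF-b1 and HFD mock libraries overlapped, the other groups did not, and CD mock was the lowest. These levels rest on few reads, with counts of 32 to 39 per CD mock library and 113 to 155 per TGF-b1 library. In Itga5-High it was at 2.79, 1.6 and 2.57 CPM, with the second library low, and in Itga5-Low at 2.6, 2.74 and 2.67 CPM.

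Fosl1, which encodes Fra-1, was the member with the largest difference between the sorted groups. It was at 47.6, 45.4 and 49.7 CPM in Itga5-High and 25.2, 22.9 and 24.5 in Itga5-Low. In the undifferentiated groups it was at 15.7, 17.8 and 15.5 CPM in CD mock, 22.5, 21.3 and 22.5 with TGF-b1, 18.7, 17.3 and 17.8 with TGF-b1 and SB431542, and 14.4, 15.3 and 13.9 in HFD mock. The TGF-b1 libraries were the highest of these, and CD mock overlapped with TGF-b1 and SB431542. Fosl1 (chr19:5447698-5455938) is an uncertain measurement, because 1163 of its 2033 annotated exon bases (57.2%, GENCODE M21) are shared with Ccdc85b on the opposite strand. Whether the counting used strand is not given in the sources used here, so reads of these genes may not have been told apart.

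Fosl2 (chr5:32136472-32157839), which encodes Fra-2, varied least within the Fos family among the undifferentiated groups. It was at 266, 259 and 271 CPM in CD mock, 186, 192 and 186 with TGF-b1, 219, 221 and 218 with TGF-b1 and SB431542, and 269, 263 and 269 in HFD mock. The CD mock and HFD mock libraries overlapped, and TGF-b1 was the lowest group. In the differentiated cells it was at 174, 181 and 180.2 CPM in Itga5-High and 199.97, 200.1 and 196 in Itga5-Low, which did not overlap.

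The Jun family was more even. Jun, the main partner of Fos (chr4:95049036-95052222), was at 94.1, 87.7 and 86.2 CPM in CD mock, 86.9, 91.2 and 91.1 with TGF-b1, 129.8, 132 and 129 with TGF-b1 and SB431542, and 132, 129.8 and 126 in HFD mock. It thus formed 2 levels, CD mock and TGF-b1 overlapping at the lower one, and HFD mock and TGF-b1 with SB431542 overlapping at the higher one. Junb (chr8:84976909-84978748), which can restrain Jun activity, was at 167, 168 and 174 CPM in CD mock, 195, 211 and 211 with TGF-b1, 192, 197 and 192 with TGF-b1 and SB431542, and 212, 207 and 209 in HFD mock. CD mock was the lowest of these, and the groups above it overlapped with their neighbours. Jund (chr8:70697739-70700616), usually the steadily expressed member of the family, was at 164, 164 and 172 CPM in CD mock, 132, 141 and 135 with TGF-b1, 212, 219.9 and 226 with TGF-b1 and SB431542, and 195, 199 and 203 in HFD mock. No pair of these groups overlapped for Jund, and TGF-b1 was the lowest.

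In the differentiated cells Jun was at 85.9, 91.8 and 85.2 CPM in Itga5-High and 77.4, 79.6 and 71.6 in Itga5-Low. Junb was at 111, 104 and 109 and 91.9, 91.8 and 93.6 CPM, and Jund at 269, 266 and 265 and 223, 219 and 215 CPM, in the same order. Each of these Jun genes was higher in all Itga5-High than in all Itga5-Low libraries. The libraries of these groups did not overlap, in either direction, for 58.2% of all genes tested.

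Egr1 (chr18:34861207-34864956), an early zinc finger factor induced by serum and growth factors, was at 146, 140.2 and 137 CPM in CD mock, 82.9, 89.9 and 86.2 with TGF-b1, 195, 191 and 189 with TGF-b1 and SB431542, and 148, 143 and 154 in HFD mock. TGF-b1 was the lowest group, CD mock and HFD mock overlapped, and TGF-b1 with SB431542 was the highest. In the differentiated groups Egr1 was at 42.7, 43.6 and 39.4 and 42.4, 44.4 and 40.4 CPM in Itga5-High and Itga5-Low, which overlapped. Egr2 (chr10:67535499-67542188), a relative of Egr1 also known for its role in myelination, was at 21.4, 20.02 and 18.8 CPM in CD mock, 28.8, 29.5 and 32.02 with TGF-b1, 25.7, 25.7 and 26.97 with TGF-b1 and SB431542, and 23.3, 26.5 and 27.6 in HFD mock. In contrast to Egr1, it was highest with TGF-b1 and lowest in CD mock.

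Atf3 (chr1:191170297-191183333) had the widest range of the 10 members among the undifferentiated groups. It was at 10.8, 11.96 and 11.7 CPM in CD mock, 5.29, 4.17 and 4.45 with TGF-b1, 29.9, 26.04 and 31.3 with TGF-b1 and SB431542, and 24.8, 25.2 and 23.6 in HFD mock. No pair of these groups overlapped. In the differentiated cells it was at 3.88, 3.37 and 3.64 CPM in Itga5-High and 2.72, 3.82 and 2.91 in Itga5-Low, which overlapped.

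Levels of different genes were compared per kb of transcript. Per kb, the summed RNA of the 4 Fos family genes was 86.3 ± 1.17 CPM (SD, n = 3) in CD mock, 66.9 ± 0.358 with TGF-b1, 88.8 ± 1.37 with TGF-b1 and SB431542, 111 ± 1.42 in HFD mock, 61.96 ± 1.42 in Itga5-High and 52.9 ± 0.775 in Itga5-Low. Fosl2 made up 52.4% of it in CD mock, and Fos 35.6%. With TGF-b1 the share of Fos was 28.5%, with SB431542 added 44.2%, and in HFD mock 48.5%, where Fos exceeded Fosl2 at 41.2%. By mean share Fos was therefore the leading family member in HFD mock and in TGF-b1 with SB431542, where Fosl2 was close at 42.1%, and Fosl2 in the other groups. This rank depends on the transcript lengths used, 2109 bases for Fos and 5863 for Fosl2. In CPM, Fosl2 was above Fos in every group. In the differentiated cells Fos made up 4.84% in Itga5-High and 7.697% in Itga5-Low, and Fosl1 45.04% and 26.9%. The shares of Fosl1, and the family sums that include it, are uncertain because of its overlap with Ccdc85b. Ccdc85b was at 43.9 CPM in CD mock, 114.6 in Itga5-High and 76.98 in Itga5-Low. Fosb stayed between 0.864% in CD mock and 4.17% with TGF-b1 in all 6 groups.

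The summed Jun family was 178 ± 3.07 CPM per kb in CD mock, 187 ± 6.95 with TGF-b1, 222 ± 3.19 with TGF-b1 and SB431542, 224 ± 1.11 in HFD mock, 179 ± 1.53 in Itga5-High and 150.2 ± 1.96 in Itga5-Low. It exceeded the Fos family sum in every group. Junb was the largest part in the undifferentiated groups, from 47.3% in TGF-b1 with SB431542 to 59.7% with TGF-b1. In the differentiated groups Jund was the largest, at 51.8% in Itga5-High and 50.6% in Itga5-Low, beside 32.5% in CD mock. The values of Jund are uncertain because 52.6% of its annotated exon bases are shared with Gm11175. They also depend on the length used, which was the 2878 bases of the deposited Jund models, while its annotated exons cover 1668 bases. A shorter length would raise the share of Jund, so its rank beside Junb in the undifferentiated groups depends on that choice. These shares are descriptions of RNA and say nothing of protein.

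**Figure D2:**
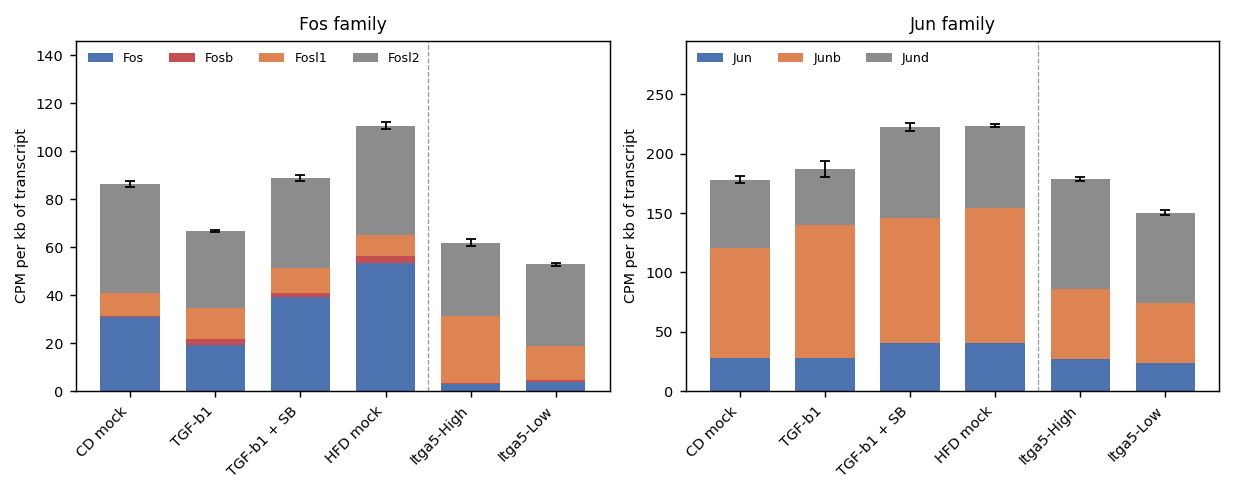
Summed CPM per kb of transcript of the Fos family and the Jun family in the 6 groups, divided by gene (stacked bars, means of 3 libraries, axes from 0). Fos took 48.5% of the Fos family in HFD mock and 4.84% in Itga5-High, and Jund took 25.3% of the Jun family with TGF-b1 and 51.8% in Itga5-High.

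TGF-b1 against mock asks how the cytokine alters preadipocytes. Fos, Egr1, Atf3, Fosl2 and Jund were lower with TGF-b1, and Fosb, Egr2, Fosl1 and Junb were higher. Fos fell by 0.69 on the log2 scale, Egr1 by a log2 change of -0.71 ± 0.034 SE (adjusted p = 1.01e-21), and Atf3 by 2.48-fold, a log2 change of -1.31 ± 0.13 SE (adjusted p = 1.81e-12). Fosb was 3.75-fold higher, a log2 change of 1.91 ± 0.16 SE (adjusted p = 1.25e-15). Egr2 rose by 0.59 and Junb by 0.28, and Fosl1, beside its overlapping neighbour Ccdc85b at 0.24, by 0.43. Fosl2 changed by -0.50 and Jund by -0.29. For Jun the log2 difference was 0.01 (adjusted p = 0.818), and with total counts in place of TMM it was -0.14 and called lower.

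In all, 4 of the 10 members were called higher and 5 lower with TGF-b1, beside 33.4% and 34.2% of the 14078 genes tested. By at least 1 log2 unit, 1 was higher (Fosb) and 1 lower (Atf3), beside 3.59% and 11.2% of all genes. The median log2 change of the members was -0.14, and that of all genes -0.017. Scaling by total counts moved the median of all genes to -0.16, and the share of higher among called genes from 49.4% to 31.4%. Of 6 preadipocyte markers, 5 were called lower with TGF-b1 and 1 higher, and they summed to 1255 to 1282 against 1767 to 1784 CPM. The summed endothelial markers were also lower, at 162.3 to 166.4 against 323.9 to 344.2 CPM per library, as were the mesothelial and adipocyte ones. The part of any of these cells in the changes was not tested. For Egr2 the call was lost when only its most abundant transcript model was counted.

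TGF-b1 with SB431542 against TGF-b1 asks what blocking the receptor kinase changes in the presence of the cytokine. This comparison shares its TGF-b1 libraries with the one above, and the next 2 comparisons reuse libraries in the same way, so each is given by its own values. Atf3 was 6.27-fold higher with the inhibitor, a log2 change of 2.65 ± 0.12 SE (adjusted p = 1.61e-26). Egr1 was 2.22-fold higher and Fos 2.06-fold higher, with log2 changes of 1.15 ± 0.032 SE and 1.04 ± 0.045 SE. Jund rose by 0.69, Jun by 0.54 and Fosl2 by 0.22 on the log2 scale. Fosb changed by -0.82 ± 0.12 SE (adjusted p = 3.74e-08) and was lower, as was Fosl1 with -0.30, a call that was lost with total counts. Ccdc85b, which overlaps Fosl1, went the other way and was higher by 0.42 ± 0.049 SE. Junb with -0.09 and Egr2 with -0.21 were called lower with TMM scaling and reversed with total counts, to 0.17 and 0.046, so their direction depends on the scaling. The call of Fosb was lost when only its most abundant transcript model was counted.

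Of the 10 members, 6 were called higher and 4 lower with the inhibitor, beside 41.4% and 38.3% of all genes tested. Changes of 1 log2 unit or more were upward in 3, namely Fos, Egr1 and Atf3, and downward in 0, beside 18.1% and 7.66% of all. The median of the members was 0.38 and that of all genes 0.037, which total counts moved to 0.29 while the share of higher among called genes went from 52% to 70%. The summed macrophage markers were 984.3 to 1007 CPM with the inhibitor against 556.8 to 574 without it, and 8 of 9 of them were called higher. The adipocyte markers summed to 3619 to 3659 against 203.1 to 210.8 CPM, the endothelial ones to 700.1 to 712.1 against 162.3 to 166.4, and the mesothelial ones to 1948 to 1960 against 582.4 to 596.7. The part of these cells in the changes of the members was not tested.

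TGF-b1 with SB431542 against mock asks how far the doubly treated cells stood from untreated ones. Atf3 was 2.52-fold and Fosb 2.12-fold higher than in CD mock, with log2 changes of 1.33 ± 0.086 SE (adjusted p = 1.47e-18) and 1.08 ± 0.17 SE (adjusted p = 1.6e-07). Jun rose by 0.55, Egr1 by 0.44, Jund by 0.40, Egr2 by 0.38, Fos by 0.35 and Junb by 0.19. Fosl2 was the exception and fell, with a log2 change of -0.27 ± 0.022 SE. For Fosl1 the difference was 0.13 (adjusted p = 0.159), and it was called higher with total counts. Its overlapping neighbour Ccdc85b was higher by 0.66 ± 0.051 SE. Fos, Egr1, Atf3 and Jund, lower than mock with TGF-b1 alone, were thus above mock when the inhibitor was added.

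Here 8 of 10 members were called higher and 1 lower, beside 30.6% and 30.4% of all genes tested. Of these, 2 were higher by 1 log2 unit or more and 0 were lower by as much, beside 7.83% and 2.84% of all. The median of the members was 0.39 and that of all genes 0.0063, which total counts moved to 0.12, with the share of higher among called genes going from 50.1% to 67.7%. Other cells' markers also differed, with all 9 macrophage, all 6 adipocyte and 5 of 6 endothelial markers called higher and 4 of 6 mesothelial markers called lower. Adipocyte markers summed to 3619 to 3659 against 1287 to 1314 CPM per library, and endothelial markers to 700.1 to 712.1 against 323.9 to 344.2. The part of any of these cells in the changes was not tested.

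HFD mock against CD mock asks how diet alters the isolated preadipocytes. Most members were higher after the high-fat diet. Fosb was 3.98-fold higher, a log2 change of 1.99 ± 0.15 SE (adjusted p = 1.94e-16), Atf3 2.13-fold, with 1.09 ± 0.088 SE (adjusted p = 4.59e-15), and Fos 1.74-fold, with 0.80 ± 0.037 SE (adjusted p = 1.49e-23). Jun rose by 0.53, Egr2 by 0.36, Junb by 0.31 and Jund by 0.26 on the log2 scale. Egr1 was called higher with a log2 change of 0.077 ± 0.03 SE (adjusted p = 0.0319), but its libraries overlapped, the change was -0.006176 with total counts, and the call was lost with DESeq2, with only the most abundant transcript and in 4 of the 6 fits that left out 1 library. For Fosl2 the difference was 0.011 (adjusted p = 0.708), and with total counts -0.07244 and called lower. For Fosl1 it was -0.18 (adjusted p = 0.0628), and it was called lower with total counts and without the third CD mock or the second HFD mock library. For its overlapping neighbour Ccdc85b it was 0.10 (adjusted p = 0.114).

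In all, 8 of 10 members were called higher and 0 lower, beside 27.1% and 26.6% of all genes tested. Changes of 1 log2 unit or more were seen upward in 2, Fosb and Atf3, and downward in 0, beside 4.37% and 7.37%. The median of the members was 0.33 and that of all genes -0.0077, which total counts moved to -0.091, with the share of higher among called genes going from 50.5% to 33.7%. Macrophage markers differed strongly in the same direction, with all 9 called higher by at least 1 log2 unit and a sum of 2240 to 2263 CPM against 495.2 to 506.3. Endothelial and mesothelial markers were lower, with all 6 of each called, as were 5 of 6 adipocyte markers. Their part in the higher levels of the members was not tested.

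**Figure D3:**
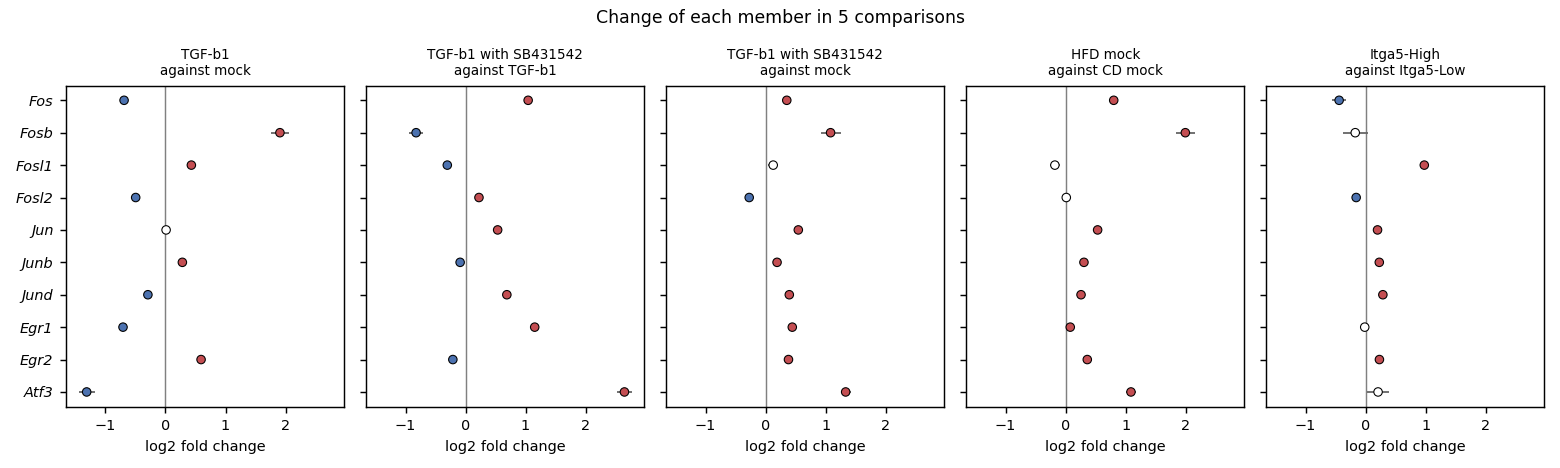
Log2 change of the 10 members in the 5 comparisons (points, with bars of 1 SE; red where called higher and blue where called lower at an adjusted p under 0.05, open where not called). Atf3 ran from -1.31 in TGF-b1 against mock to 2.65 when SB431542 was added, and in Itga5-High against Itga5-Low all members lay within 1 log2 unit of 0.

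Itga5-High against Itga5-Low asks whether precursors sorted by integrin alpha 5 differ after adipogenic differentiation. Fosl1 was 1.97-fold higher in Itga5-High, a log2 change of 0.98 ± 0.057 SE (adjusted p = 6.16e-17), and Ccdc85b, with which it shares exon bases, was higher by 0.57 ± 0.034 SE. Jund rose by 0.29, Egr2 by 0.23, Junb by 0.23 and Jun by 0.20 on the log2 scale. Fos with -0.44 ± 0.12 SE (adjusted p = 0.00208) and Fosl2 with -0.16 ± 0.023 SE (adjusted p = 3.59e-06) were lower. The differences of Atf3 (0.21, adjusted p = 0.36), Fosb (-0.17, adjusted p = 0.523) and Egr1 (-0.015, adjusted p = 0.817) were not called, and those of Fosb and Egr1 changed sign when single libraries were left out. The higher value of Egr2 reversed when only its most abundant transcript model was counted.

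In all, 5 of 10 members were called higher and 2 lower in Itga5-High, beside 27% and 26.5% of the 13468 genes tested. By at least 1 log2 unit the count was 0 in both directions, beside 2.03% and 2.09%. The median of the members was 0.20 and that of all genes -0.0033, and the share of higher among called genes went from 50.5% to 41.7% with total counts. Adipocyte markers summed to 6893 to 6922 CPM per library when sorted High and 7592 to 7640 when sorted Low, and 5 of 6 were called lower in Itga5-High. The summed macrophage markers were 39.39 to 40.54 against 18.15 to 19.61 CPM, with Fcgr1 and Ptprc at 0 or not listed. Only 3 of these 9 passed the filter, and 2 were called higher. Adgre1 was at 0.17 against 0.26 CPM and Cd68 at 2.96 against 1.96. The mesothelial markers summed to 100.7 to 104 against 42.13 to 44.76 CPM, with Msln at 0 or not listed. Only 2 of these 6 passed the filter, and 1 was called higher. Upk3b was at 0.39 against 0.68 CPM. These sums thus rest on few genes. The part of any of these cell types in the members' differences was not tested.

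Other genes of the pathway were counted from 5 lists, whose counts are read against the shares of all genes called in each comparison. Of the 16 textbook AP-1 target genes tested, which include proteases and cytokines, 11 were called higher and 5 lower in TGF-b1 against mock. The shares of all genes were 33.4% and 34.2%, and the median log2 change of the targets was 0.73 beside -0.017 for all genes. With the inhibitor against TGF-b1, 4 were higher and 11 lower, beside 41.4% and 38.3% of all genes, with a median of -1.34 beside 0.037. Against mock, 4 were higher and 9 lower, beside 30.6% and 30.4% of all genes. In HFD mock, 12 were higher and 3 lower, beside 27.1% and 26.6% of all genes. In Itga5-High 8 of 14 were higher and 1 lower, beside 27% and 26.5%. Single targets moved in opposite directions. Mmp3, a matrix protease, fell with TGF-b1 at 7.83 ± 1.1 against 182 ± 0.45 CPM (log2 change -4.53), while Il11, a profibrotic cytokine, rose at 12.9 ± 1.3 against 0.907 ± 0.25 CPM (log2 change 3.84). Mmp3 also fell in HFD mock, by a log2 change of -2.01, where Spp1, which encodes osteopontin, rose by 2.68. All 9 macrophage markers were also called higher there, and their part in these changes was not tested. Ccnd1, which encodes cyclin D1, was higher by 1.63 with TGF-b1 and SB431542 than in mock.

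Of the 26 other immediate early genes tested, 12 were called higher and 11 lower in TGF-b1 against mock, 13 and 11 in TGF-b1 with SB431542 against TGF-b1, 13 and 7 in TGF-b1 with SB431542 against mock, and 12 and 9 in HFD mock. In Itga5-High 14 of 25 were higher and 3 lower. Among all genes, 33.4% were higher and 34.2% lower in TGF-b1 against mock, 41.4% and 38.3% when SB431542 was added, 30.6% and 30.4% in that group against mock, 27.1% and 26.6% in HFD mock, and 27% and 26.5% in Itga5-High, and several counts of this list lie near these shares. Nr4a3, which encodes an early orphan nuclear receptor, fell with TGF-b1 at 7.13 ± 0.47 against 37.3 ± 0.74 CPM (log2 change -2.39), and was higher by 2.16 when SB431542 was added. Gadd45b, a stress response gene, went the other way, with 1.604 and -1.89. In HFD mock Nr4a3 changed by -1.22 and Dusp5, a nuclear phosphatase that acts on ERK, by -1.17, while Fos, Fosb and Atf3 were higher there. Arc and Myc were higher in Itga5-High, by 0.85 and 0.54.

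Of the 20 upstream kinases, phosphatases and factors, 8 were called higher and 9 lower in TGF-b1 against mock, 7 and 9 when SB431542 was added, 5 and 10 in that group against mock, 8 and 5 in HFD mock, and 6 and 8 in Itga5-High. These counts are to be read against the same shares of all genes, which several of them lie near. Mrtfa, a cofactor of serum response factor, rose with TGF-b1 by 1.04 and was -1.67 with the inhibitor against TGF-b1. Spry2, a feedback inhibitor of receptor tyrosine kinase signalling, fell with TGF-b1 by a log2 change of -1.28, and was also lower in HFD mock, at -0.80. Spry4, of the same family, was higher by 1.47 with the inhibitor against TGF-b1 and lower in HFD mock, at -0.75.

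Among 11 partners and related bZIP genes, 4 were called higher and 4 lower in TGF-b1 against mock, 7 and 4 when SB431542 was added, 7 and 1 in that group against mock, and 5 and 2 in HFD mock. In Itga5-High 1 of 8 was higher and 3 lower. These counts, and those of the heat shock genes below, are to be read against the same shares of all genes. Maf, a large Maf protein, fell with TGF-b1 at 72.7 ± 1.1 against 188 ± 3.9 CPM (log2 change -1.37). Heat shock genes, which respond to handling of cells, were counted as a comparison. Of the 10 tested, 6 were called higher and 4 lower in TGF-b1 against mock, 3 and 7 when SB431542 was added, 0 and 8 in that group against mock, 4 and 6 in HFD mock, and 5 and 2 in Itga5-High. Their median log2 changes were 0.35, -0.56, -0.30, -0.096 and 0.080 in that order. The genes of largest change did not all follow these medians. With TGF-b1, Hspa1b and Hspa1a changed by -1.02 and -1.01. When SB431542 was added, Hspd1 changed by -1.33 and Hspa1b by 0.96. In HFD mock Hspb1 fell by a log2 change of -0.52. Hspa1b was higher there by 0.66. All values of Hspa1a and Hspa1b are uncertain because these genes are near-identical copies.

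**Figure D4:**
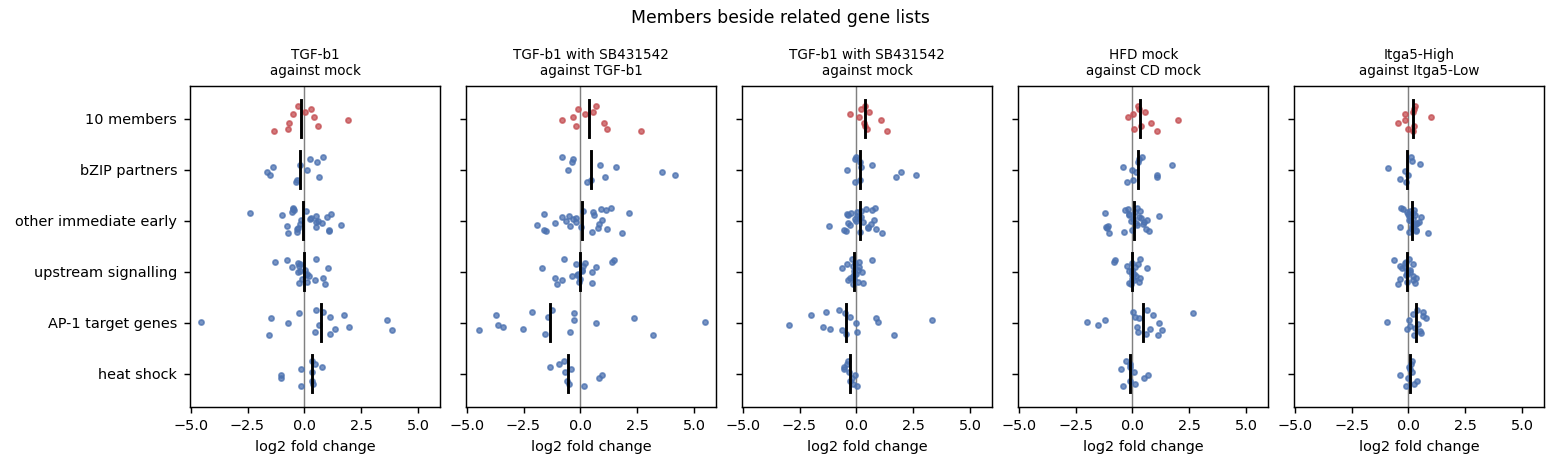
Log2 change of each tested gene of the 5 lists and of the members (points) in the 5 comparisons, with black bars at the list medians and a grey line at 0. The textbook AP-1 targets had a median of 0.73 in TGF-b1 against mock and -1.34 when SB431542 was added, and spread more widely than the members.

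Genes whose profile over the 12 undifferentiated libraries lay nearest to a member were found by Euclidean distance between log2 CPM values centred on each gene's mean, for the 4 members whose group means spanned at least 1 log2 unit. The nearest to Fos were Cacng7, Peli2 and Lfng, at distances of 0.265, 0.283 and 0.391. Nearest to Egr1 were Cd302, Hexa and Cerk, at 0.212, 0.22 and 0.229. Nearest to Atf3 were Ptafr, Hhex and Lcp2, at 0.453, 0.481 and 0.537. Ptafr encodes the receptor for platelet-activating factor and Lcp2 an adaptor protein of blood cells. The part of other cells in these profiles was not tested. The nearest to Fosb, Fsd1, Amz1 and Iqgap2, were farther away, at 1.14, 1.29 and 1.31. Counting error widens such distances for genes with few reads, and Fosb had 32 to 39 counts per CD mock library. Its part in the larger distances was not tested. None of the nearest genes named here is a member, so no other AP-1 or Egr gene was among the 3 nearest of any of the 4.

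The tables list several transcript models for Fosb, Egr2 and Jund. Of the Fosb models, of 3776 and 3636 bases, the longer took from 13.6% to 99.7% of the gene across the 18 libraries, with replicates of 1 group far apart. In CD mock it ranged from 13.6% to 98.9%, and the shorter took 86.43% alike in 1 CD mock and 1 Itga5-High library, so the splice forms were not compared. The main Egr2 model took 55.6% to 92.2%. The 2 Jund models have the same length and were each given 50% in every library. Jund shares 877 of its 1668 annotated exon bases (52.6%) with Gm11175. Unlike Ccdc85b, Gm11175 is not listed in the deposited tables, and the deposited Jund models are longer, at 2878 bases. How reads of the shared stretch were counted is not known, so the levels of Jund are uncertain. The shared parts of annotated exon bases were 7.52% for Junb, with Prdx2, and 7.28% for Jun, with Junos.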

How the data were processed

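The authors deposited estimated counts (expected counts) per RefSeq transcript, not scaled to library size, in separate tables for the 12 undifferentiated and the 6 differentiated libraries. The submitters' processing notes name fastp, STAR, featureCounts and mm10. Which versions and strand setting they used, and how reads were shared among transcript models, is not given in the sources used here. In the deposited tables the stop coordinate lies 1 base past the end, and ends were printed 1-based. Groups followed the labels' treatment, diet and sorting terms.

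Transcript values were summed by gene symbol and rounded. Genes were kept by filterByExpr (14078 and 13468 genes), scaled by TMM and tested with the quasi-likelihood test of edgeR 4.0.16 in R 4.3.3, separately for each table, with 1 coefficient per group and Benjamini-Hochberg adjustment over all genes tested. For standard errors the dispersion was held to at least 1e-04. The procedure was tested on simulated data. Depth limits the precision of low genes such as Fosb and Atf3.

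The members and the lists were chosen with earlier results of these data known. Besides all members, the genes named were, from each list and comparison, the 2 called members of largest change whose groups did not overlap and reached 10 CPM, a set of check genes and cell markers, and the 3 nearest profiles of members spanning at least 1 log2 unit. Ccdc85b was added because of its overlap with Fosl1. Some genes that met the rule are not printed. Alternatives were total counts, DESeq2 1.42.0, other filters, the most abundant transcript alone, a dispersion floor, a replicate block, the 2 groups alone and leaving out each library. Promoters are from RefSeq (GRCm38.p6). Python 3.11.15 with pandas 2.3.3 and matplotlib 3.10.9 was used for tables and figures.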

Additional observations from a re-analysis of the deposited data

How the results depend on the processing

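Of the members' log2 changes under all alternatives, 660 kept their direction and their side of the threshold, 11 were no longer called, 4 became called and 15 reversed. The reversals concern small differences. With total counts Jun in TGF-b1 against mock was -0.138, Junb and Egr2 in TGF-b1 with SB431542 against TGF-b1 were 0.1676 and 0.04625, and Fosl2 and Egr1 in HFD mock against CD mock were -0.07244 and -0.006176. With only the most abundant transcript, Jun in TGF-b1 against mock was -0.00144, Egr2 in TGF-b1 with SB431542 against TGF-b1 was 0.1295 and Egr2 in Itga5-High against Itga5-Low was -0.1689. Leaving out 1 library at a time gave -0.01051 to 0.04804 for Jun in TGF-b1 against mock, -0.00766 to 0.02624 for Fosl2 in HFD mock, and -0.3547 to 0.01299 for Fosb and -0.04897 to 0.02391 for Egr1 in Itga5-High against Itga5-Low. The cause was not tested. All genes called in Itga5-High against Itga5-Low were 7199, and 4444 with only the most abundant transcript. Same-numbered replicates did not deviate together, with correlations from -0.0218 to 0.0242, so the numbers were not used to pair libraries. With a replicate block the members called were 9, 10, 9, 8 and 7 in the 5 comparisons, as without it, and all genes called in TGF-b1 against mock were 9472 in place of 9517. Depth limits Fosb most, with 19 to 48 counts per differentiated library.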
